A study of Mus musculus with 6 samples.

Results

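Replication-independent histone variant genes were read in the RNA of mouse embryonic fibroblasts (MEF) during reprogramming, with and without Rnf20. The members were taken by symbol from the 16982 genes of the count table, and all 9 of them were found: H2afx, H2afz, H2afv, H2afy, H2afy2, H2afj, H3f3a, H3f3b and H1f0. RNA was collected at day 3 of reprogramming from 3 WT and 3 Rnf20 knockout (KO) cultures on a C57BL/6 background. According to the methods of the study, all cultures received the OSKM factors (OCT4, SOX2, KLF4, C-MYC) from retroviruses, and the infected cells were replated on mitomycin-C-treated MEF feeder layers, so RNA of feeder cells may be part of every library. The knockout cells carry floxed Rnf20 alleles and a ubiquitously expressed, tamoxifen-inducible Cre, and lost Rnf20 in culture with 4-OH tamoxifen. The sample labels give all 6 cultures as untreated, whether the WT cultures received the drug is not stated, and an effect of the drug cannot be told apart from that of the genotype. No source says that replicates came from separate embryos, so p-values measure the spread between these samples, which may be technical among the WT cultures. The KO libraries were not repeats of a single RNA, as the Y-linked gene Ddx3y had 2686 counts in KO2 and 0 in KO1 and KO3.

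Most histone genes lie in clusters, are transcribed in S phase and give messages that end in a stem-loop in place of a poly(A) tail. The variant genes lie outside these clusters and are mostly polyadenylated. They can be used throughout the cell cycle, so that their products can be placed into chromatin without DNA replication. H2A.Z is exchanged into nucleosomes beside start sites by the SRCAP and p400-TIP60 complexes, H3.3 is deposited by HIRA and by DAXX-ATRX, H2A.X is phosphorylated around DNA breaks, macroH2A marks silent chromatin and resists reprogramming, and H1.0 is the linker histone of resting and differentiated cells. RNF20, with RNF40, is the ligase that attaches ubiquitin to H2B, the partner of every H2A variant in the nucleosome.

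H2afx is the member that combines both ways of ending a message, and its stem-loop is shown because it sets this gene apart from the others. A script searched the transcripts of each protein-coding gene in GENCODE for a hairpin of 16 bases, with a stem of 6 perfectly paired bases that begins with GG and a loop of 4 bases that begins with TTT. Of the members, only H2afx held this match. It lies at chr9:44335240-44335255 (GRCm38, plus strand) in the 3′ UTR, 50 bases after the end of the coding part and 822 bases before the end of the annotated transcript. The match is in capitals, with 5 bases on each side:
H2afx: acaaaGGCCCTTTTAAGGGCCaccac
The same search matched 44 of 67 annotated clustered Hist genes (65.7%) and 28 of 21884 other protein-coding genes (0.128%). The latter set holds the members, so H2afx is among the 28. The libraries were made from poly(A)-selected RNA, and which form of the H2afx message the counts read was not tested.

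The sequences in front of 3 members are shown because H2afz and H2afv, which encode nearly the same protein, fell to a like degree and H2afj moved the other way. Each line gives the last 100 bases before the gene start in RefSeq (GRCm38.p6), 5′ to 3′ on the strand of the gene, with motif matches in capitals. The stretches lie at chr3:137864387-137864486 (plus strand), chr11:6444444-6444543 (minus strand) and chr6:136808148-136808247 (plus strand), in this order:
H2afz: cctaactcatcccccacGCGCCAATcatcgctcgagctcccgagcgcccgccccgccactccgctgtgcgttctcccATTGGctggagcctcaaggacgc
H2afv: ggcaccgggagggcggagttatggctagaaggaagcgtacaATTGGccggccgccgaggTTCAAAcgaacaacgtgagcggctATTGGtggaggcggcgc
H2afj: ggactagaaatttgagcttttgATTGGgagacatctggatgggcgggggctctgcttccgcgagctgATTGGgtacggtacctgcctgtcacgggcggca
In the 250 bases before the start, searched on both strands, the CCAAT box (CCAAT) was found in 5 of the 8 members with an entry among the promoters used. These were H2afz, H2afv, H2afj, H3f3a and H3f3b. The box was found in 33.8% of all 32851 promoters used, among which H2afx had no entry. H2afz also held an E2F-like motif (TTGGCGC), which overlaps its CCAAT box and occurs in 1.97% of promoters. H2afv held a CHR element (TTTGAA), an element of cell cycle genes that occurs in 16% of promoters. H3f3b held a TATA box (TATAAA, 12.4% of promoters) and H3f3a a box of linker histone genes (AAACACA, 6.25%). A further E2F-like motif (TTCCCGC, 3.82%) was in none of the 8, and H2afy, H2afy2 and H1f0 held none of the 6 motifs. A match is a description of these letters and shows no binding.

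The libraries held 20545442 to 21746898 counts, and 3 counts, the floor set by a count of 0, equal 0.142 to 0.143 CPM (counts scaled by the TMM-normalized size of each library), far below every member. Rnf20 itself was at 106 to 107 CPM in WT and at 16.4 to 18.7 CPM in KO, and fell by 2.57 on the log2 scale (SE 0.081, and an adjusted p of 0.000163 from the quasi-likelihood test of edgeR, adjusted by the Benjamini-Hochberg method as all p-values of that test here). The counts cover the whole gene, including exons outside the deleted part. Its partner Rnf40 overlapped between the genotypes (log2 fold change -0.019, adjusted p = 0.889). KO3 stood apart: the chi-square per gene was 92.4 and 101 between KO3 and the other KO libraries, 8.57 between KO1 and KO2 and 6.04 to 8.92 between WT libraries. Ddx3y, a Y-linked gene, had 1990 to 2121 counts in WT, 2686 in KO2 and 0 in KO1 and KO3, so the presence of Ddx3y and the genotype are partly confounded. The 9 fibroblast markers were present in every library, with a summed level of 27444 to 29790 CPM in WT and 17933 to 33546 CPM in KO, and 2 of them (Thy1 and Pdgfra) fell. In bulk RNA, fewer cells of a type and less RNA per cell cannot be told apart.

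Of the 9 histone variant genes, 8 were lower in every KO library than in every WT library, and H2afj was higher in all 3. All 9 passed the filter on low counts. At an adjusted p under 0.05, 7 members fell (H2afx, H2afz, H2afv, H2afy2, H3f3a, H3f3b and H1f0) and 1 rose (H2afj), and H2afy did not pass. Over all 13386 genes tested, 16.6% fell and 16.4% rose at this threshold, 28.2% had all KO libraries below the WT libraries and 26.6% had all of them above. The thresholds of the study (FDR under 0.01, fold change over 2 and FPKM over 1) were applied to edgeR's quasi-likelihood test. At them, 4 members fell, H2afx, H2afz, H2afv and H1f0, against 2.08% of all genes. That share is 279 genes, fewer than the study itself reported as lower, so these are not its own calls. The median log2 fold change was -1.04 over the 9 members and -0.00032 over all genes tested.

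**Figure D1:**
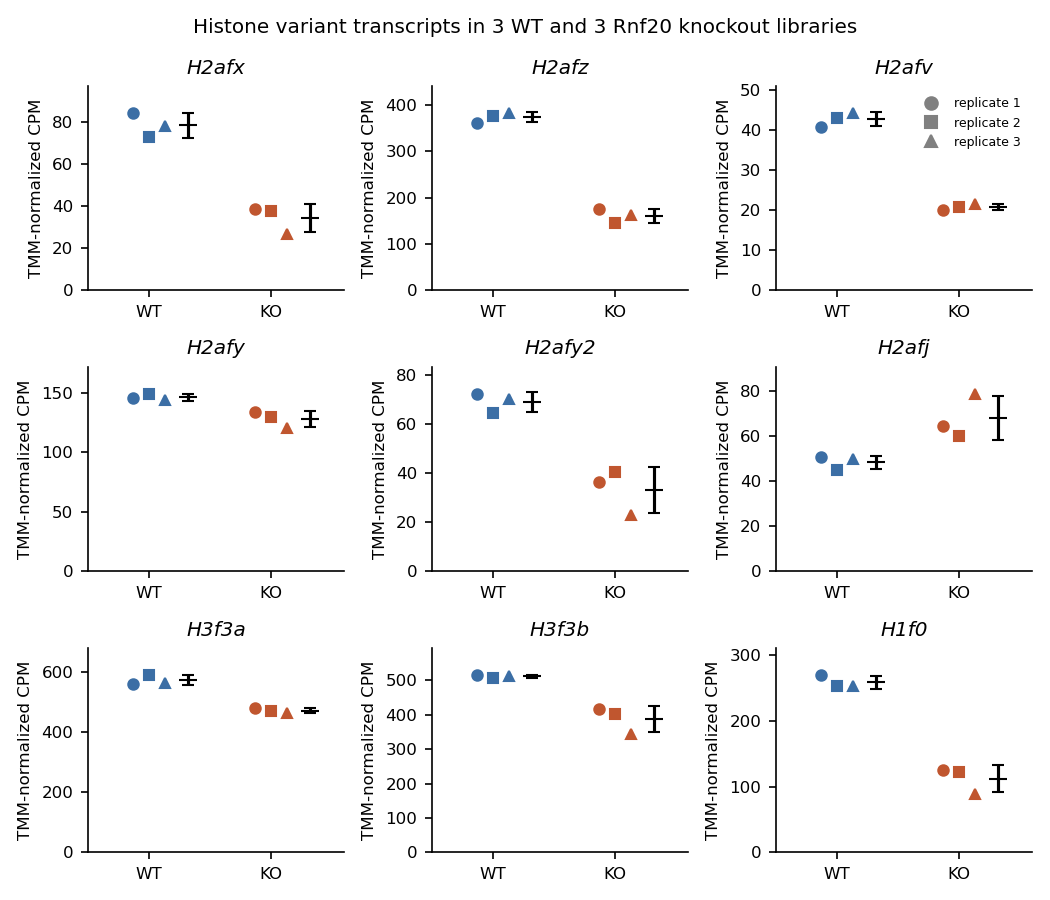
TMM-normalized CPM of each member in 3 WT and 3 KO libraries, with the mean and SD beside the points and the symbol shape giving the replicate. The KO points lie below all WT points for 8 members and above them for H2afj, and KO3 is the lowest library for H2afx, H2afy, H2afy2, H3f3a, H3f3b and H1f0.

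Both H2A.Z genes fell. H2afz, which encodes H2A.Z.1 and is essential in the mouse embryo, was at 361, 377 and 383 CPM in WT1 to WT3 and at 175, 145 and 163 CPM in KO1 to KO3. Its level in KO was 43.1% of that in WT, with a log2 fold change of -1.22 (SE 0.087, adjusted p = 0.00178 by edgeR's quasi-likelihood test). H2afv, which encodes the second H2A.Z protein, was at 40.8, 43.1 and 44.4 CPM in WT and at 20.1, 20.7 and 21.6 CPM in KO. H2afv in KO was at 48.7% of WT, with a log2 fold change of -1.04 (SE 0.078, adjusted p = 0.00178 by edgeR's quasi-likelihood test). For both genes KO3 lay among or near the other KO libraries, and without it the log2 fold changes were -1.22 and -1.06.

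H2A.X and the linker histone H1.0 fell by nearly as much, with a wider spread. H2afx was at 84.5, 72.8 and 77.9 CPM in WT and at 38.8, 37.5 and 26.6 CPM in KO. The log2 fold change of H2afx was -1.19 (SE 0.15, adjusted p = 0.00433 by edgeR's quasi-likelihood test). H1f0 was at 269.9, 253 and 253 CPM in WT and at 125, 122 and 88.3 CPM in KO, a log2 fold change of -1.21 (SE 0.14, adjusted p = 0.00356 by edgeR's quasi-likelihood test). KO3 was the lowest library for both, and without it the log2 fold change was -1.04 for H2afx and -1.06 for H1f0, with smaller SEs of 0.077 and 0.056. H2afx shared 6.14% of its 50-base windows with other genes, among them 16 counted genes such as Hist1h2ai, Hist1h2aj and Hist1h2ao, so some of its counts are uncertain, and the part of these reads in its difference was not tested.

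The macroH2A genes moved unequally. H2afy, which encodes macroH2A1, was at 145, 149 and 144 CPM in WT and at 134, 130 and 121 CPM in KO. The libraries did not overlap, but the log2 fold change of -0.19 (SE 0.068) did not pass the threshold (adjusted p = 0.0715 by edgeR's quasi-likelihood test). It passed without KO3 (-0.15, adjusted p = 0.0397) and with scaling by library size alone (-0.25, adjusted p = 0.0340). H2afy2, which encodes macroH2A2, was at 72.3, 64.3 and 70.1 CPM in WT and at 36.4, 40.4 and 22.8 CPM in KO. H2afy2 fell by 1.05 on the log2 scale (SE 0.20, adjusted p = 0.0119 by edgeR's quasi-likelihood test) and, without KO3, by 0.84. The call was lost without WT3 (adjusted p = 0.0546). Exons of H2afy2 overlap 233 bases of Aifm2 on the other strand. The library kit keeps the strand, but whether the counting used it is not given in the sources used here.

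The H3.3 genes fell least among the members that passed. H3f3a and H3f3b encode the same protein from different messages, with 76.7% of 408 coding bases identical. H3f3a was at 559.8, 589.7 and 563 CPM in WT and at 479.8, 470.4 and 462 CPM in KO, a log2 fold change of -0.28 (SE 0.065, adjusted p = 0.0209 by edgeR's quasi-likelihood test). H3f3b was at 516, 507 and 511 CPM in WT and at 418, 401 and 344 CPM in KO, a log2 fold change of -0.40 (SE 0.089, adjusted p = 0.0176 by edgeR's quasi-likelihood test). KO3 was the lowest library for each, clearly so for H3f3b, which fell by 0.32 without it. H3f3a lost its call when any library but KO3 was left out (adjusted p between 0.0503 and 0.0850), and H3f3b when any WT library was (0.0658 to 0.0711).

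H2afj was the member that rose. It encodes H2A.J, a variant known to accumulate in senescent fibroblasts. H2afj was at 50.4, 45.1 and 49.7 CPM in WT and at 64.6, 60.0 and 78.7 CPM in KO, with KO3 the highest. The log2 fold change was 0.49 (SE 0.12, adjusted p = 0.0223 by edgeR's quasi-likelihood test), and 0.37 without KO3 (adjusted p = 0.00205). The call was lost when any WT library was left out (adjusted p between 0.0662 and 0.0897). On the deposited FPKM scale the genotypes overlapped, with 53.8, 70.4 and 76.6 FPKM in WT and 97.9, 67.1 and 106.5 FPKM in KO.

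**Figure D2:**
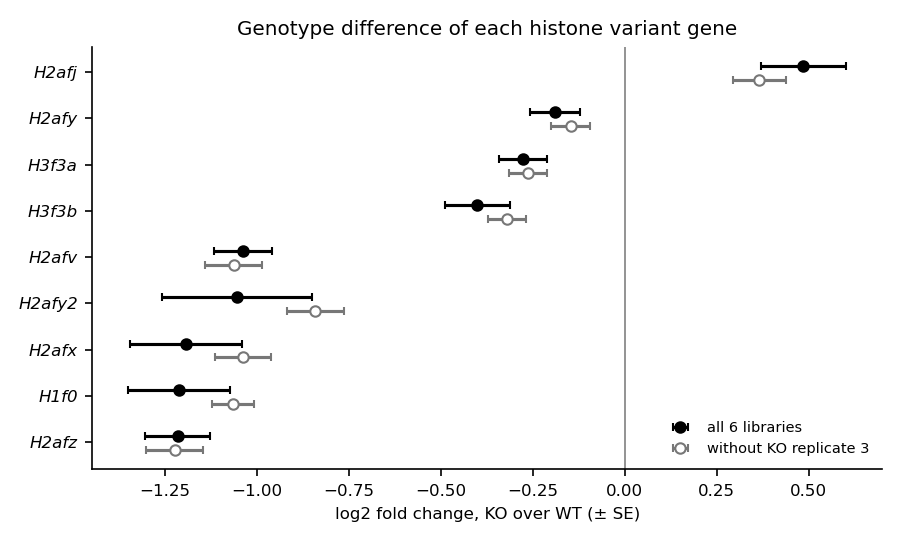
Log2 fold change of KO over WT for each member with its SE, over all 6 libraries (filled) and without KO3 (open). H2afz, H1f0, H2afx, H2afy2 and H2afv lie between -1.22 and -1.04 with all libraries, the H3.3 genes and H2afy between -0.40 and -0.19, and H2afj at 0.49.

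Calls at the strict thresholds depended on the libraries and the method used. With all 6 libraries, 5 members passed them by DESeq2, by edgeR's exact test and with scaling by library size alone. When any WT library was left out, 0 members passed the thresholds of the study by edgeR's quasi-likelihood test, although H2afx, H2afz, H2afv and H1f0 remained at adjusted p values of 0.0161 to 0.0319. Without KO1 or KO2, 2 members passed them, and without KO3, 4. At an adjusted p under 0.05, 5 members fell without WT1 or WT2, 4 without WT3, 6 without KO1 or KO2 and 8 without KO3. Over all genes the calls moved in the same way, from 694 higher and 702 lower without WT3 to 3230 higher and 3280 lower without KO3, against 2195 and 2218 with all libraries. With the presence of Ddx3y counts as a term beside the genotype, H2afz (-1.36, adjusted p = 0.0290) and H2afv (-1.04, adjusted p = 0.0463) kept their calls. The other called members lost theirs, with adjusted p from 0.0701 to 0.259 and log2 fold changes of -1.09 for H1f0, -1.06 for H2afx, -0.77 for H2afy2, -0.35 for H3f3b, -0.28 for H3f3a and 0.31 for H2afj. That fit called 80 genes higher and 29 lower in all, and KO2 is the only KO library with Ddx3y counts.

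Levels can be compared between the genes only per length. As CPM per kilobase of the deposited gene length, WT levels ran from H2afz (349.7 ± 10.7, SD, n = 3) through H3f3b (204 ± 1.79), H3f3a (192 ± 5.54), H1f0 (113 ± 4.30), H2afy (71.1 ± 1.34), H2afx (56.6 ± 4.24) and H2afy2 (31.7 ± 1.90) to H2afj (26.4 ± 1.58) and H2afv (26.2 ± 1.11). The last pair did not differ beyond its spread, while the libraries of all other neighbours were separate. In KO, H3f3a (159 ± 2.95), H3f3b (154 ± 15.3) and H2afz (151 ± 13.97) overlapped at the top, and H2afj (37.0 ± 5.31) stood above H2afx (24.8 ± 4.83), H2afy2 (15.3 ± 4.25) and H2afv (12.8 ± 0.46). The deposited FPKM gave another order in WT, with H3f3a first at 644 FPKM, H2afz at 444 and H3f3b at 417. FPKM placed H2afj the seventh in WT and the fourth in KO.

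The composition of the H2A variant transcripts differed between the genotypes. The 6 H2A variant genes together were at 555, 558 and 572 CPM per kilobase in WT and at 321, 290.2 and 297 in KO. H2afz made up 62.2% ± 1.23 (SD, n = 3) of this sum in WT and 49.7% ± 2.52 in KO. H2afy, whose own difference did not pass, went from 12.7% ± 0.38 to 20.6% ± 1.05, and H2afj from 4.71% ± 0.28 to 12.2% ± 1.92. H2afx held 10.1% ± 0.81 and 8.18% ± 1.51, H2afy2 5.64% ± 0.34 and 5.04% ± 1.45, and H2afv 4.66% ± 0.14 and 4.23% ± 0.33. The libraries of the genotypes were separate for each share but that of H2afy2. The gap was narrow for H2afx (9.42% in WT2, 9.34% in KO2) and H2afv (4.50% in WT1, 4.45% in KO3). Shares were not computed on the deposited FPKM, which gave another order of the genes in WT. The H3.3 sum was at 393 to 400.4 CPM per kilobase in WT and 293 to 328 in KO, with H3f3a at 48.6% ± 0.91 and 50.8% ± 2.12 of it.

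**Figure D3:**
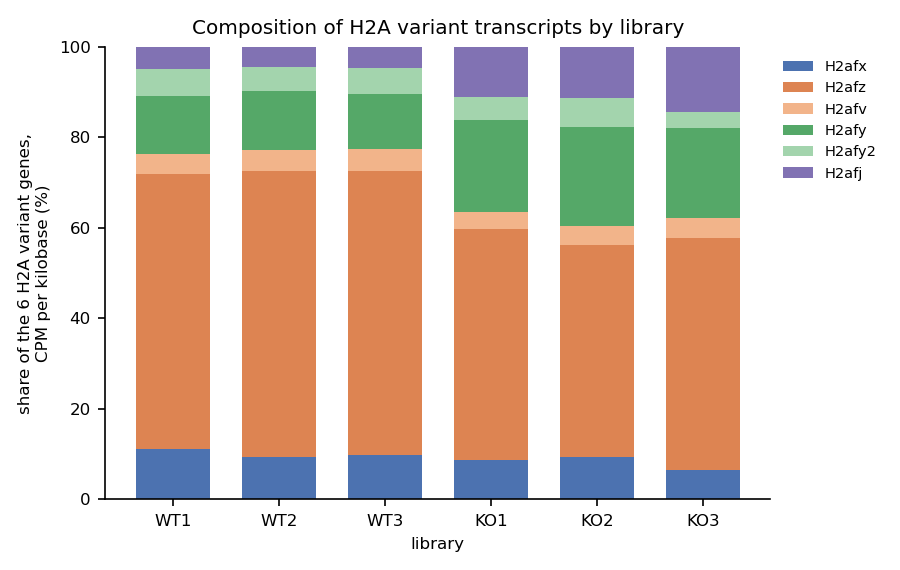
Share of each of the 6 H2A variant genes in their summed CPM per kilobase, as stacked bars for each library, adding to 100%. The H2afz part is 60.8% to 63.1% in the WT libraries and 46.8% to 51.3% in the KO libraries, and the H2afy and H2afj parts are larger in all 3 KO libraries.

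Within the 3 pairs of related genes, the balance was compared by exact two-sided permutation tests of the log2 ratio per length, where 3 against 3 libraries cannot give a p below 0.1. The ratio of H2afy to H2afy2 was 1.09, 1.30 and 1.12 in WT and 1.96, 1.77 and 2.49 in KO on the log2 scale. These values did not overlap, and the difference was 0.90 (exact permutation p = 0.1, the smallest possible, and 0.2 after Benjamini-Hochberg adjustment over 3 pairs), or 0.69 without KO3. The ratio of H2afz to H2afv was 3.76, 3.74 and 3.72 in WT and 3.73, 3.42 and 3.53 in KO (difference -0.18, exact permutation p = 0.2), a difference of -0.11 without KO2. The ratio of H3f3a to H3f3b was -0.12, -0.023 and -0.10 in WT and -0.041, -0.010 and 0.19 in KO (difference 0.13, exact permutation p = 0.2), a difference of 0.058 without KO3. The latter pairs overlapped between the genotypes, in H2afz and H2afv through KO1.

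Other histone variants outside the clusters were also lower. Of 10 listed, 3 were in the table and 2 passed the filter on counts, and both fell. Cenpa, the H3 variant of centromeres, was at 44.5 to 44.8 CPM in WT and at 17.4, 13.4 and 7.001 CPM in KO (log2 fold change -1.82, SE 0.30, adjusted p = 0.00757 by edgeR's quasi-likelihood test). H1fx, a linker histone, was at 42.2 to 49.8 CPM in WT and at 19.2, 17.8 and 12.1 CPM in KO (-1.46, SE 0.18, adjusted p = 0.00394). In both, KO3 was the lowest. H2afb3 had 1 count in 1 library and was not tested.

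Genes that place the variants into chromatin, and genes tied to replication and the centromere, were read from lists, and their counts stand beside the 16.6% of all genes that fell and the 16.4% that rose. Of 22 genes for H2A.Z exchange, 5 fell by edgeR's quasi-likelihood test, a share near that of all genes, with a median log2 fold change of -0.28. With scaling by library size alone 11 of the 22 fell. The subunits Mbtd1 (-0.63, adjusted p = 0.00632), Brd8 (-0.51, adjusted p = 0.0207), Actl6a (-0.45, adjusted p = 0.0250) and Vps72 (-0.31, adjusted p = 0.0292), a subunit that binds H2A.Z, fell. The fifth, named after its value was seen, was Anp32e, a chaperone that removes H2A.Z (-0.75, adjusted p = 0.0300). Of 7 genes for H3.3 deposition, 2 fell, too few to set beside the share of all genes, with a median of -0.21. These were Asf1a, which hands H3.3 to HIRA (-0.57, adjusted p = 0.00857), and Hira itself (-0.51, adjusted p = 0.0149).

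Of 12 tested genes that phosphorylate, dephosphorylate or read H2A.X, 1 fell and 1 rose, with a median of -0.28 (4 fell and 1 rose by DESeq2, 3 fell and 0 rose by edgeR's exact test, and likewise with scaling by library size alone). The quasi-likelihood counts are no larger a share than that of all genes. Mdc1, which binds phosphorylated H2A.X, was at 79.2 to 85.5 CPM in WT and 44.7, 45.2 and 26.8 CPM in KO (-1.06, adjusted p = 0.0107 by edgeR's quasi-likelihood test). Ppp4r2, a subunit of a phosphatase that acts on H2A.X, was at 122 to 130.0 CPM in WT and 142, 154 and 164 CPM in KO (0.29, adjusted p = 0.0296).

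Of 10 replication-coupled histone chaperones, 6 fell, with a median of -1.07. Chaf1b (-1.68, adjusted p = 0.00487) and Chaf1a (-1.17, adjusted p = 0.0129), subunits of the assembly factor CAF-1, Mms22l (-1.11, adjusted p = 0.00739) and Asf1b (-1.03, adjusted p = 0.00954) were the 4 with the smallest p by edgeR's quasi-likelihood test. The 3 genes read for CENP-A deposition fell, with a median of -1.29. They were Oip5 (-2.04, adjusted p = 0.00326), Mis18a (-1.16, adjusted p = 0.00739) and Hjurp, the CENP-A chaperone (-1.29, adjusted p = 0.0226). In the lists for H2A.Z exchange, H3.3 deposition, replication-coupled chaperones and CENP-A deposition, 0 genes rose by edgeR's quasi-likelihood test, and 0 also at an unadjusted p under 0.05, by DESeq2 and by edgeR's exact test. The counts of lower genes changed with the libraries used: without KO3 they were 9 for H2A.Z exchange, 3 for H3.3 deposition, 6 for H2A.X, 8 for the replication-coupled chaperones and 3 for CENP-A deposition, and over the 3 fits without a WT library they were 1, 1 to 2, 1, 2 to 4 and 2. With the Ddx3y term in edgeR, 0 genes of these lists passed, while at an unadjusted p under 0.05 they had 1, 2, 1, 5 and 2 lower genes.

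**Figure D4:**
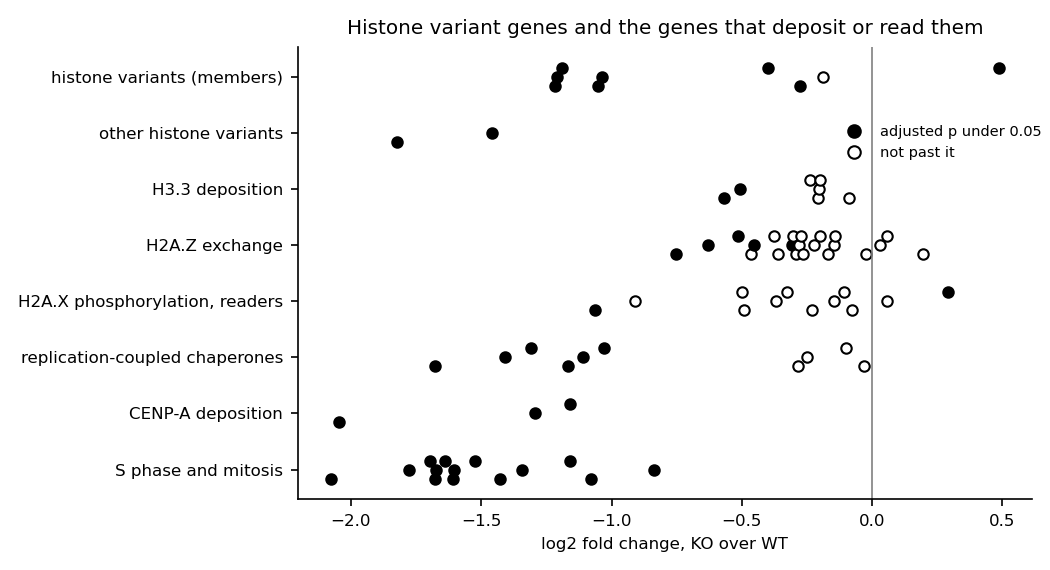
Log2 fold change of KO over WT for each tested gene of 8 lists, filled where the adjusted p is under 0.05. The replication-coupled chaperones that passed, the CENP-A genes and the S phase and mitosis markers lie below -0.8, and most genes for H2A.Z exchange, H3.3 deposition and H2A.X lie between -0.6 and 0.3.

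Markers of S phase and mitosis moved in the direction of the 8 members that were lower in KO, and against H2afj. All 14 were lower in KO (median log2 fold change -1.61, or -1.26 without KO3), and their summed level was 1745 to 1806 CPM in WT and 762, 663 and 285 CPM in KO1, KO2 and KO3. Without 1 WT library, 6 to 8 of them passed, and with the Ddx3y term in edgeR 0 did, against 9 at an unadjusted p under 0.05. The lowest library of these markers, KO3, was also the lowest for H2afx, H2afy, H2afy2, H3f3a, H3f3b and H1f0, while H2afz was lowest in KO2 and H2afv in KO1. The counts of the clustered Hist genes did not follow the same direction. Most of their messages lack a poly(A) tail and the libraries were poly(A)-selected, so these counts do not measure the whole of their RNA. Of 59 in the table, 25 passed the filter on counts, of which 14 rose and 1 fell (median 1.12, or 0.97 without KO3). Over all genes tested, 16.4% rose and 16.6% fell. A gene could pass that filter through its KO libraries alone, so these values do not stand for all 59. Without a filter on counts, 15 of the 59 rose and 1 fell (median 0.80). The number that rose was 7 to 10 without a WT library and 1 with the Ddx3y term. It was 9 of 12 tested with a minimum of 50 counts in 3 libraries and 8 of 19 by limma on FPKM. The part of cell cycle phase in the differences of the members was not tested.

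Markers of other cells were low and uneven. The 8 macrophage markers summed to 44.8 to 91.9 CPM in WT and to 76.1, 46.8 and 237 CPM in KO, with Adgre1 at 31.9 CPM in KO3 and 1.76 to 4.27 CPM elsewhere. The 6 epithelial markers summed to 54.6 to 58.4 CPM in WT and 77.0, 53.6 and 21.8 CPM in KO. Among them Krt19 rose, with 12.7, 13.2 and 15.4 CPM in WT and 43.2, 29.7 and 18.4 CPM in KO (adjusted p = 0.0274 by edgeR's quasi-likelihood test). Krt8 was at 28.4 to 30.3 CPM in WT and 18.1, 12.4 and 0.71 CPM in KO, and Krt18 and Epcam, both near 1 to 2 CPM in WT, were also lower in every KO library, but these 3 did not pass. Without KO3, Krt8 (log2 fold change -0.95, adjusted p = 0.000347) and Krt18 (-0.94, adjusted p = 0.0465) passed by the same test. Cldn4, at the floor of 0.14 CPM in WT, then rose (1.96, adjusted p = 0.0128). The Krt19 call was lost when any WT library was left out. The 5 endothelial markers summed to 48.3 to 59.0 CPM in WT and 66.9, 53.6 and 32.3 CPM in KO, nearly all of it Tek, with Pecam1, Cdh5 and Emcn at 0 to 0.53 CPM. The pluripotency markers summed to 0.998 to 2.33 CPM in WT and 0.43 to 0.91 CPM in KO. The part of these cells in the values of KO3 was not tested, and each member kept its direction without that library.

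Genes with a pattern most like that of each called member were found by Pearson correlation of log2 CPM over the 6 libraries, which fall into the 2 genotypes and therefore give high values for many genes. H2afx was nearest to Fndc4 and Ahcy, H2afz to Mtss1 and Mfsd12, H2afv to Pde4b and Rpl39l, and H2afy2 to Oat and Ccdc61. H3f3a was nearest to Msl3 and Pir, H3f3b to Spdl1 and Aurkb, H1f0 to Mast3 and Ccnb2, and H2afj to 5730409E04Rik and Ankrd1. The coefficients were 0.997 or higher. Aurkb, Spdl1 and Ccnb2, named here for H3f3b and H1f0 only, are mitotic genes, and the other genes named were not sorted by function.

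The members differ in gene structure, with exons counted in the longest coding transcript that GENCODE gives for each. H2afx (chr9:44334694-44336077, plus strand), H2afj (chr6:136808244-136810074, plus strand) and H1f0 (chr15:79028450-79030504, plus strand) have a single exon, and of these H2afx and H1f0 fell and H2afj rose. H2afz (chr3:137864487-137866922, plus strand) and H2afv (chr11:6427229-6444443, minus strand) have 5 exons and share 79.2% of 384 coding bases. H2afy (chr13:56073619-56136361, minus strand) and H2afy2 (chr10:61738665-61784147, minus strand) have 9 exons and share 67.2% of 1116 coding bases. H3f3a (chr1:180800832-180813943, minus strand) has 4 exons and H3f3b (chr11:116021912-116027962, minus strand) has 6. The promoter stretch read for H3f3b (chr11:116024505-116024754) lies inside its GENCODE span, so it need not precede the transcript with 6 exons. All positions are of GRCm38. H2afz shared 33.2% of its 50-base windows with 4 other genes, H3f3a 14.9% with 38 and H3f3b 8.40% with 3, none of which are among the counted genes, so reads from these stretches may have been lost or divided. H2afy2 shared 6.68% with 1 gene outside the counted ones. H2afj shared 2.24% with 21 genes, 15 of them counted, and 0.281% with the counted ones, among them Hist1h2ai, and the part of these reads in its rise was not tested. H2afv, H2afy and H1f0 shared none.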

How the data were processed

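The authors prepared stranded mRNA libraries, used HISAT2 2.1.0 to align the read pairs (GRCm38/mm10) and deposited a table of unnormalized whole-number counts for each gene. The counting program is not given in the sources used here. The authors also deposited FPKM values, computed with Cufflinks 2.1.1, for 12633 genes. Columns with the authors' log2 fold changes and FDR were not used. The members and gene lists were chosen with earlier results of these data known.

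Counts were normalized by TMM and filtered with filterByExpr, and genotypes were compared over 13386 genes with the quasi-likelihood test of edgeR 4.0.16 in R 4.3.3 without covariates, with Benjamini-Hochberg adjustment over all genes. The SE was taken as the size of the log2 fold change over the root of the F statistic. The FPKM threshold of the study was read as the mean of 1 genotype. Ratios of related genes were compared by exact permutation tests. A count of 3 was the floor; it covers counting error only, since PCR duplicates cannot be told apart. The tests were tested on simulated data. In the genotype comparison, 59 of 100 genes given a log2 change of 1 were recovered, and 7 of 100 given a change of 0.5. In the simulation 13213 genes were tested. Far more genes were called in the data (2195 higher and 2218 lower), which makes the Benjamini-Hochberg adjustment milder. The recovered shares are therefore not those of the real comparison. A gene that did not pass is not shown to be unchanged. Named genes were the 9 members, Rnf20, Rnf40, in each list at most the 4 genes with the smallest p at an adjusted p under 0.05, and the 2 genes most correlated with each called member. A gene of these lists is not reported here and is in none of the counts. Alternatives were RLE, upper-quartile and library-size scaling, other filters, DESeq2 1.42.0, edgeR's exact test, limma 3.58.1 on FPKM, a replicate block, a Ddx3y term and each library left out; the list counts under these were added after seeing the data. Gene positions, transcripts and shared 50-base windows came from GENCODE M21, to which all 9 members were matched by identifier, and promoters from RefSeq for 8 of them, by symbol.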

Additional observations from a re-analysis of the deposited data

How the results depend on the processing

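No member changed direction under any of the 17 alternatives run for single genes. H2afz and H2afv kept their side of the threshold in all 17, H2afx and H1f0 in 16, H2afy and H2afy2 in 15, H3f3b in 13, H2afj in 11 and H3f3a in 10. Leaving out 1 library at a time gave 0 to 1 members higher, 4 to 8 lower and 0 to 4 past the study thresholds. With the Ddx3y term, 0 were higher, 2 lower and 0 past the study thresholds. With limma on log2(FPKM + 1) or on log2(FPKM + 0.1), 0 were higher. The causes were not tested. The replicate numbers gave no sign of pairing, as the correlations of deviations within a number were -0.066, 0.037 and 0.011. Such values cannot show that the samples were unpaired. With the replicate number as a block, 6 members were lower, 1 was higher and 0 passed the study thresholds, H3f3a lost its call (adjusted p = 0.0679), and 3 genes for H2A.Z exchange were lower in place of 5. The differences of the 3 paired ratios were recomputed on the deposited FPKM and without each library only, and kept their sign. With the replicate block they are -0.18, 0.13 and 0.90, which equal the values without it by construction. Over all genes, scaling by library size alone gave 1750 higher and 2684 lower (39.5% higher), against 2195 and 2218 (49.7%), and the Ddx3y term gave 80 and 29 (73.4%). Calls were lost most often for H3f3a, H2afj and H3f3b, in 7, 6 and 4 of the alternatives, and H2afy gained one in 2.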
